A study of Homo sapiens with 6 samples.

Results

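The genes examined were the inhibitor of apoptosis (IAP) family and its mitochondrial antagonists, taken from the deposited count table by symbol: BIRC2, BIRC3, XIAP, BIRC5, BIRC6, BIRC7, NAIP, DIABLO and HTRA2. These 9 genes had 10 rows among the 27942 of the table, because DIABLO was listed under 2 identifiers. HCT116, the source of the RNA, is an established human line from a colorectal carcinoma, with wild-type p53 and mutated CTNNB1 according to the study's methods. In the OXA group, 3 libraries came from cells exposed for 24 h to oxaliplatin at 0.5 µM, and the NT group holds 3 libraries of the same line without the drug, with no transgene or other agent named in the labels of either group. Oxaliplatin is a platinum drug that forms adducts on DNA, and the study chose this dose as its IC50 in these cells. The comparison asks which of the genes that restrain or release caspases had a different mRNA level after 24 h of drug. All values are of 1 cell line, and nothing in the labels says that the libraries came from separately grown cultures, so p-values measure the spread between these libraries.

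IAP proteins carry the BIR domain, a small zinc-binding fold that lets XIAP hold caspases inactive. BIRC2 and BIRC3 encode cIAP1 and cIAP2, ubiquitin ligases of the TNF receptor complex that favour NF-kB signalling over cell death, and BIRC5 encodes survivin, which in dividing cells is a subunit of the chromosomal passenger complex with Aurora B. When mitochondria become permeable, SMAC (the product of DIABLO) and the protease HTRA2 enter the cytosol, occupy the BIR domains and free the caspases. The family is of interest in colorectal cancer because many tumours express survivin and XIAP strongly.

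The raw counts summed to between 32979521 and 40967880 per library. NT library 1 stood farther from the other NT libraries (chi-square per gene 83.1 and 75.7) than those did from each other (21.4), and for the genes whose call changes without it the value is given that way too. Without NT library 1, edgeR called 4.49% of all genes higher and 4.11% lower. With any other single library left out, edgeR called at most 153 genes higher and 145 lower, against 381 and 315 with all libraries. The shares without NT library 1 are of the 13888 genes tested in that fit. The counts over all genes for the other libraries, here and below, cover only genes also tested with all libraries. Of 6 epithelial and colon markers, 5 had at least 3282 raw counts in each library and VIL1 had 39 to 95, whereas the leukocyte markers PTPRC and CD3E lay between 0 and 2, the endothelial PECAM1 between 1 and 7 and the hepatocyte ALB between 0 and 4. Of the fibroblast markers, DCN was at 0 in all libraries and COL1A1 had 107 to 273 raw counts, more than VIL1. CDKN1A, a p53 target that encodes p21, had 7.60 times as much RNA in OXA as in NT (log2 fold change 2.93 with a standard error, SE, of 0.15, edgeR adjusted p = 0.000445), and MDM2, the p53 ubiquitin ligase, had 4.66 times as much (log2 fold change 2.22 ± 0.12 SE, edgeR adjusted p = 0.000445).

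No IAP gene or antagonist passed the threshold in the comparison without a replicate block, and BIRC3, BIRC5 and XIAP did so with it. Of the 9, 8 passed the filter on low counts, and their log2 fold changes, OXA over NT, lay between -0.38 (NAIP) and 0.57 (BIRC3), with a median of -0.043 beside 0.023 over all 13727 genes tested. The median of the 8 ranged from -0.095 (without OXA library 3) to -0.027 (without OXA library 2) as single libraries were left out, and it was -0.083 without NT library 2. With edgeR's quasi-likelihood fit and p-values adjusted over all genes, 0 of the 8 had an adjusted p under 0.05, where 5.07% of all genes tested did (2.78% higher and 2.29% lower). At an unadjusted p under 0.05, 1 was higher (BIRC3) and 1 lower (BIRC5), beside 10.7% and 11.1% of all genes (21.7% in either direction). DESeq2 called 0 of the 8 higher and 1 lower, BIRC5 (log2 fold change -0.37, DESeq2 adjusted p = 0.0384), beside 4.64% and 4.41% of its genes (9.05% together). A limma-trend fit on the authors' normalized values called 0 in either direction, beside 1.72% and 1.36% (3.08% together). NT and OXA libraries with the same number deviated together from their group means, so the comparison was also made with that number as a block. It called BIRC3 higher, and BIRC5 and XIAP lower, 1 and 2 of the 8 genes beside 12.1% and 10.9% of all genes (23.0% together). The blocked comparison depended on which libraries it held. Without both libraries numbered 1 it called 2 higher (BIRC2 and BIRC3) and 3 lower (XIAP, BIRC5 and NAIP), beside 21.2% and 20.2% of all genes. Without those numbered 2 it called 0 of the 8, beside 6.95% and 4.89%, and without those numbered 3 it called 1 higher (BIRC3) and 1 lower (BIRC5), beside 13.7% and 8.66%. The estimates of these 3 genes in either fit lay under the 1.5-fold change that the study required in addition. As these are bulk libraries, fewer cells with a given RNA and less of that RNA per cell cannot be told apart.

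**Figure D1:**
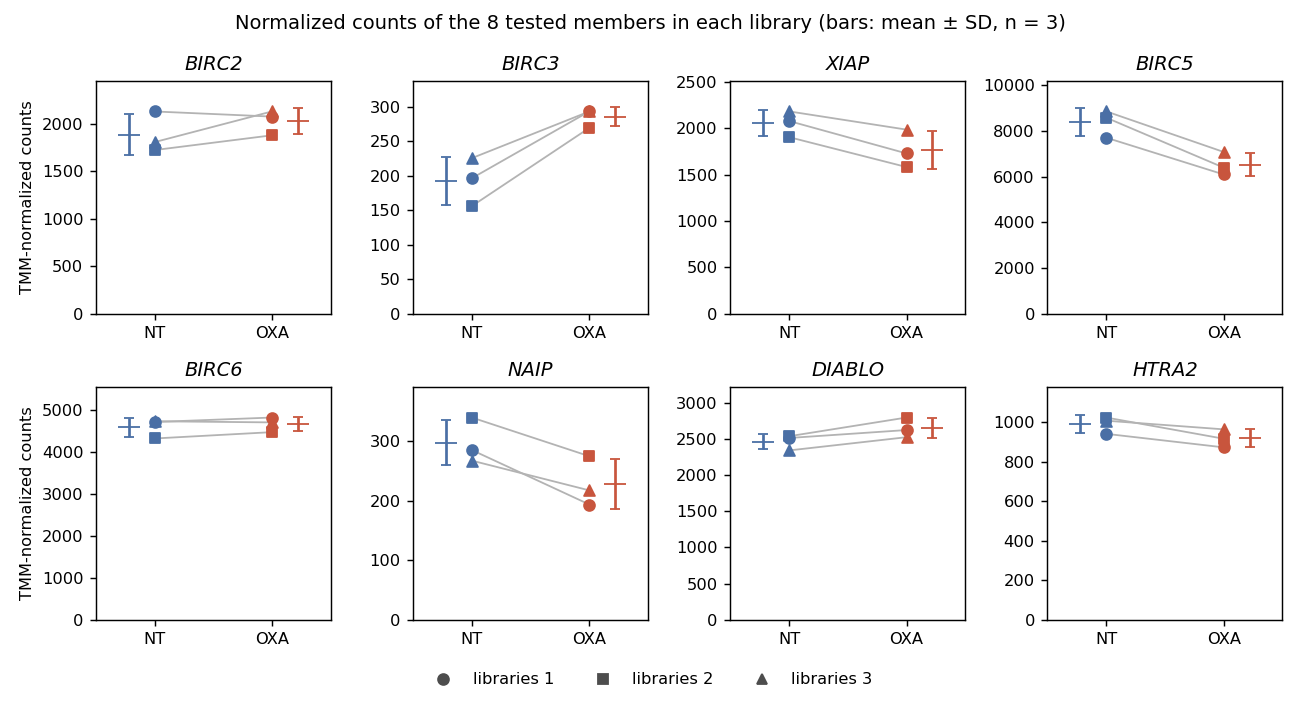
TMM-normalized counts (y axis, from 0) of the 8 tested genes in each NT and OXA library, with grey lines joining libraries of the same number and bars for the mean ± SD of 3 libraries. The OXA libraries lie above all NT libraries for BIRC3 and below all of them for BIRC5, and in the other 6 genes the groups overlap.

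BIRC5 had the highest level per length of the family and, of its members, the smallest edgeR adjusted p in both fits. It had 7699, 8574 and 8849 normalized counts in NT libraries 1 to 3, and 6089, 6388 and 7073 in OXA libraries 1 to 3. Each OXA library lay below each NT library, as was the case for 14.4% of all genes tested, while 14.5% lay higher without overlap (28.9% together). The means were 8374 ± 601 and 6517 ± 504 (SD, n = 3), a fold change of 0.778 with a 95% interval from 0.666 to 0.910. The edgeR adjusted p was 0.0784 without the block (log2 fold change -0.36 ± 0.097 SE) and 0.00793 with it (log2 fold change -0.36 ± 0.049 SE). The 3 same-numbered pairs gave log2 ratios of -0.34, -0.42 and -0.32. When single libraries were removed, BIRC5 passed the threshold without NT library 1 (log2 fold change -0.42, edgeR adjusted p = 0.0282), and without each of the other 5 the edgeR adjusted p lay between 0.114 and 0.280. The blocked edgeR adjusted p was 0.0778 without the libraries numbered 2. BIRC5 lies on chromosome 17 of GRCh38 from 78214186 to 78225636 on the plus strand, and no other gene of the annotation overlaps it.

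Survivin works in mitosis together with Aurora B, INCENP and borealin. The genes of this complex and of other proteins linked to it were therefore read beside BIRC5. This list was chosen with earlier results of these data known. Its counts are not read as particular to the complex or as separate support for BIRC5. Of 10 such genes, all tested, 9 had a log2 fold change below 0, and the median was -0.30 beside 0.023 over all genes. Over all 13727 genes tested, 6414 lay below 0. Without NT library 1 the median of the list was -0.25 with 8 of the 10 below 0, and 6938 of all 13722 genes lay below 0. The median of the list lay between -0.35 and -0.27 without any of the other 5 libraries. HASPIN, the kinase whose mark on histone H3 recruits the complex to centromeres, was the only one of the 10 with an edgeR adjusted p under 0.05 without the block. It had 1310, 1131 and 1114 normalized counts in NT and 675, 688 and 742 in OXA, and all OXA libraries lay below all NT libraries (log2 fold change -0.76 ± 0.11 SE, edgeR adjusted p = 0.0118). HASPIN had the lowest log2 fold change of the list, at 0.592 of the NT level. It lost its call when any of the OXA libraries was left out. Of all genes, 19, 32 and 67 were called lower without OXA libraries 1, 2 and 3, against 315 with all libraries. With the block 5 of the 10 fell, namely HASPIN, SGO1, BUB1, CDCA8 and KIF20A, and 0 rose, where 10.9% of all genes tested fell and 12.1% rose.

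Among the direct partners of survivin, the groups were apart in CDCA8 and overlapped in AURKB and INCENP. CDCA8, which encodes borealin, had 3644, 3700 and 3615 normalized counts in NT and 2951, 2848 and 3052 in OXA (log2 fold change -0.31 ± 0.077 SE, edgeR adjusted p = 0.0648, and 0.0143 with the block). AURKB, the gene of Aurora B, had 2579, 3196 and 2748 in NT, and 2 OXA libraries (2386 and 2365) lay below them and 1 (2707) among them (log2 fold change -0.19 ± 0.11 SE, edgeR adjusted p = 0.368, and 0.0551 with the block). INCENP, the scaffold, had 2024, 3516 and 2971 normalized counts in NT and at most 2359 in OXA, so that only NT library 1 lay within the OXA range. Its values over all libraries did not pass the threshold (log2 fold change -0.40 ± 0.19 SE, edgeR adjusted p = 0.276, and 0.0671 with the block), and without NT library 1 it fell (log2 fold change -0.59 ± 0.11 SE, edgeR adjusted p = 0.0137). SGO1, the centromere guardian shugoshin, had a log2 fold change of -0.53 and BUB1, a spindle checkpoint kinase, one of -0.36, both called with the block. Of these, SGO1 was also called without the block once NT library 1 was left out (log2 fold change -0.43, edgeR adjusted p = 0.0456). EVI5, a midbody protein, was the highest of the list at a log2 fold change of 0.024, and PLK1, the mitotic kinase, differed by -0.017. BIRC5, at -0.36, lay inside the range of the list.

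**Figure D2:**
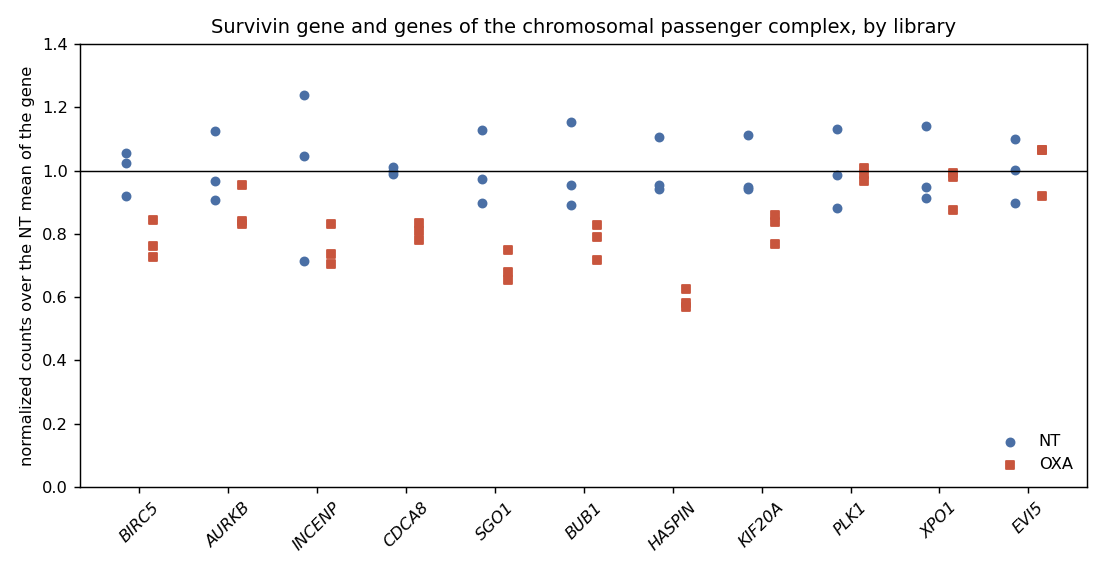
Normalized counts of BIRC5 and of 10 genes of the chromosomal passenger complex or linked to it. Each is divided by that gene's NT mean (y axis, from 0), with 1 point per library. HASPIN shows the widest gap between NT and OXA, the NT libraries of CDCA8 lie close together, and INCENP and AURKB overlap.

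BIRC3 and BIRC2 encode the paralogs cIAP2 and cIAP1 and lie side by side on chromosome 11 of GRCh38, both on the plus strand. BIRC3 spans 102317484 to 102339403 and BIRC2 spans 102347211 to 102378670, with 7807 bases between them. BIRC3 is a known target of NF-kB, and the 250 bases before its start site are printed because they hold 2 separate matches to the NF-kB consensus. The stretch is chr11:102317234-102317483 of GRCh38.p14 from RefSeq, plus strand, with the matches in capitals.
BIRC3 promoter: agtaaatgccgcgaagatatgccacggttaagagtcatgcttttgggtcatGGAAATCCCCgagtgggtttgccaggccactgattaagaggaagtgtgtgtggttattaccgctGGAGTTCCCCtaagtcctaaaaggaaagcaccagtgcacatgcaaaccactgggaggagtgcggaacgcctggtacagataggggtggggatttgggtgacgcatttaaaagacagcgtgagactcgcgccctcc
Both matches read on the minus strand, at positions -199 to -190 and -135 to -126 from the start site. Of 27305 promoters of this length, 9.57% held at least 1 match on either strand. The share with 2 separate matches was not determined. Promoters were found for 7 of the 9 genes, which leaves out BIRC5 and NAIP, and of the other 6 only BIRC6 held a match, read on both strands at one place (-215 to -206). The motif TTTGAA was on either strand of 0 of the 7, beside 13.6% of all promoters. The same held for the CCAAT box, which 9021 of all promoters held, and for the p53 half-site consensus, which 5.53% held. The motif GGCGG was in the 250 bases before the RefSeq start site of BIRC2, BIRC6, XIAP and DIABLO, beside 55.5% of all promoters. The longer GGGCGG, which contains it, was in those of BIRC6, XIAP and DIABLO, beside 42.3%. Part of some stretches lies in exons of the same gene in GENCODE, namely 85 bases for DIABLO, 22 for BIRC7 and 3 for BIRC2. A match describes letters and not binding.

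BIRC3 had 196, 156 and 225 normalized counts in NT and 293, 269 and 293 in OXA. All 3 OXA libraries lay above all NT libraries, and the OXA libraries were closer together than the NT libraries. The means were 193 ± 34.9 and 285 ± 13.8, a fold change of 1.48 with a 95% interval from 1.12 to 1.95. The edgeR adjusted p was 0.105 without the block (log2 fold change 0.57 ± 0.17 SE) and 0.0270 with it (log2 fold change 0.58 ± 0.13 SE). All 3 same-numbered pairs were higher, with log2 ratios of 0.58, 0.79 and 0.38. Removing any of the 6 libraries left it short of the threshold (edgeR adjusted p between 0.0907 and 0.293), and the blocked edgeR adjusted p was 0.175 without the libraries numbered 2. The separation also depended on the normalization. In the authors' normalized values BIRC3 had 164, 146 and 313 in NT and 254, 244 and 308 in OXA, and NT library 3 was the highest of all. For BIRC3 the authors' value was 1.27 times the raw count in NT library 3 and 0.856 times in NT library 1. A lncRNA on the opposite strand (ENSG00000288528) shares 126 exonic bases with BIRC3.

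BIRC2 had no call in either fit. It had 2132, 1725 and 1809 normalized counts in NT and 2078, 1881 and 2133 in OXA, and the groups overlapped. The log2 fold change was 0.10, with a 95% interval from -0.15 to 0.36 (edgeR adjusted p = 0.643, and 0.303 with the block), and of the same-numbered pairs 2 were higher and 1 lower. Without the libraries numbered 1 the blocked fit called BIRC2 higher (log2 fold change 0.18, edgeR adjusted p = 0.00707). Per length of all exons BIRC2 exceeded BIRC3 in each library, by 13.3 to 18.3 times in NT and by 11.6 to 12.1 times in OXA. The difference of change between the paralogs was not tested.

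XIAP, the direct caspase inhibitor on chromosome X of GRCh38 (123859712 to 123913972, plus strand), was lower in OXA in each pair. It had 2080.3, 1906 and 2184 normalized counts in NT and 1730.1, 1583 and 1987 in OXA, and OXA library 3 lay within the NT range. The log2 ratios of the pairs were -0.27, -0.27 and -0.14. On the authors' normalized values the 3 OXA libraries (1789, 1549 and 1608) lay below those of NT (2140, 1800 and 1921). The fold change in normalized counts was 0.859 with a 95% interval from 0.716 to 1.03 (log2 fold change -0.22 ± 0.11 SE, edgeR adjusted p = 0.316). With the block the edgeR adjusted p was 0.0462, against 0.00319 without the libraries numbered 1, 0.353 without those numbered 2 and 0.117 without those numbered 3. The annotation holds 3 pseudogenes named after XIAP, of which 0 are rows of the table, and how reads shared with them were counted is not given in the sources used here.

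BIRC6, the giant family member that joins a BIR domain to a ubiquitin-conjugating domain, had the log2 fold change nearest to 0 of the 8. It had 4711, 4319 and 4729 normalized counts in NT and 4818, 4470.2 and 4702 in OXA. Its log2 fold change was 0.024 with a 95% interval from -0.17 to 0.22 (edgeR adjusted p = 0.900), and its sign turned without NT library 2 (-0.049) and without OXA library 3 (-0.014). BIRC6 lies on chromosome 2 of GRCh38 (32357023 to 32619571, plus strand), and its joined exons of 18535 bases are the longest of the family.

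NAIP, which senses bacterial proteins for the NLRC4 inflammasome besides carrying BIR domains, had 285, 339.8 and 267 normalized counts in NT and 194, 275 and 217 in OXA. It was lower in all 3 pairs, and OXA library 2 lay within the NT range. The log2 fold change of -0.38 was the lowest of the family, but its standard error was 0.18 and the 95% interval ran from -0.80 to 0.041 (edgeR adjusted p = 0.277, and 0.0593 with the block). Without the libraries numbered 1 the blocked fit called it (edgeR adjusted p = 0.0424). NAIP lies on chromosome 5 of GRCh38 from 70968166 to 71025339 on the minus strand, and 4 pseudogenes carry its name in the annotation, 0 of them rows of the table, so its counts are uncertain to the extent that reads were shared. Its partner NLRC4 had 7 to 24 raw counts per library (log2 fold change -0.62 ± 0.40 SE, edgeR adjusted p = 0.431), CASP1 had 0 counts in all 6 libraries, and the pore former GSDMD differed by -0.024.

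BIRC7, which encodes livin and lies on chromosome 20 of GRCh38 (63235883 to 63240495, plus strand), was at the detection limit, with 0 raw counts in each NT library and 0, 1 and 1 in OXA. It was not tested, and a count of 0 allows up to 3 counts per library. BIRC8, a testis-linked relative of XIAP that is not among the 9 genes, had 0 counts in all 6 libraries.

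Neither antagonist passed the threshold in any of the fits. DIABLO, on the minus strand of chromosome 12 of GRCh38 (122207663 to 122227456), had 2514, 2538 and 2342 normalized counts in NT and 2624, 2797 and 2525 in OXA. OXA library 3 lay within the NT range, while each OXA library was higher than the NT library of its number. The log2 fold change was 0.10 with a 95% interval from -0.096 to 0.30 (edgeR adjusted p = 0.544, and 0.195 with the block). The other DIABLO identifier (ENSG00000284934) shares 2192 of its 2351 exonic bases with the first and had 3 raw counts in NT library 1 and 0 in the other 5 libraries. HTRA2, on chromosome 2 of GRCh38 (74529596 to 74533350, plus strand), had 940.5, 1023 and 1007 normalized counts in NT and 872, 916 and 963 in OXA. OXA library 3 again lay within the NT range, and each pair was lower in OXA, while on the authors' normalized values the OXA libraries (870, 918 and 973) lay below those of NT (981, 1022 and 1003). Its log2 fold change was -0.11 with a 95% interval from -0.34 to 0.12 (edgeR adjusted p = 0.575, and 0.278 with the block). HTRA2 shares 936 exonic bases with LOXL3 and 165 with AUP1, and DIABLO shares 970 with B3GNT4, all on the opposite strand. LOXL3 had 134 to 193 raw counts, AUP1 2396 to 4132 and B3GNT4 77 to 269. The library kit marks strand, but the strand setting of the counting is not given in the sources used here.

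**Figure D3:**
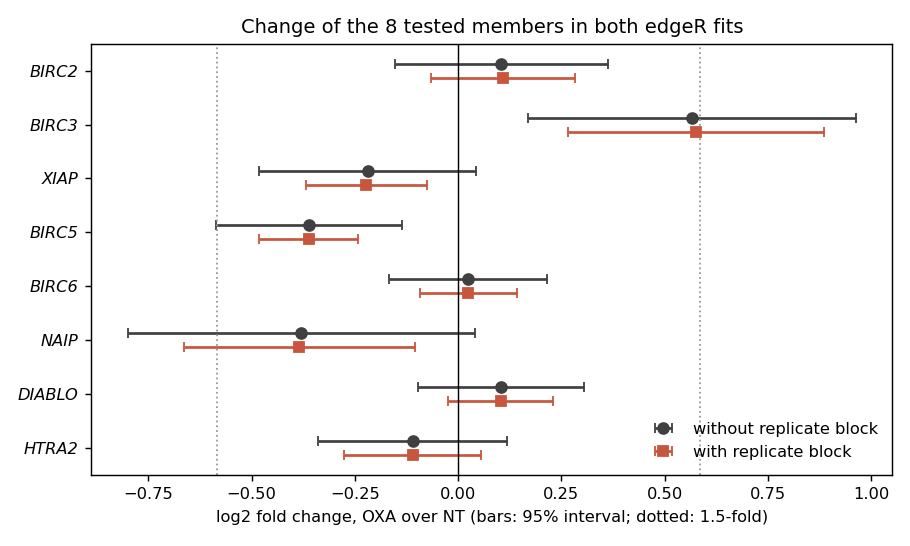
Log2 fold change of OXA over NT (x axis) with its 95% interval for the 8 tested genes, without the replicate block (circles) and with it (squares). The estimates of both fits nearly coincide, the block narrows the intervals, and no estimate reaches the dotted lines at 1.5-fold.

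Levels of different genes were compared as CPM (counts scaled to library size) per kilobase, first over the length of all exons joined. On this scale BIRC5 was the highest in NT at 61.0 ± 4.38, followed by BIRC2 at 11.6 ± 1.32, DIABLO at 9.84 ± 0.427, HTRA2 at 8.08 ± 0.355 and BIRC6 at 6.87 ± 0.347 (SD, n = 3). XIAP lay between 5.56 and 6.37. NAIP at 0.822 ± 0.104 and BIRC3 at 0.715 ± 0.130 came last of the tested genes, and they were the only neighbours in this order whose NT libraries overlapped. In OXA the order kept BIRC5 first at 47.5 ± 3.67, HTRA2 and BIRC6 overlapped, and BIRC3 at 1.06 ± 0.0512 stood above NAIP at 0.632 ± 0.115. The scale rests on which exons are used. With the length of the canonical transcript, DIABLO moved to second place in NT at 46.5 ± 2.02, against 90.4 ± 6.49 for BIRC5 and 6.68 ± 0.456 for XIAP, because the canonical DIABLO transcript has 1471 bases and its joined exons 6960.

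Survivin mRNA made up most of the summed level of the family. Per length of all exons, BIRC5 made up 66.9%, 72.1% and 71.1% of the summed level of the 7 IAP genes in NT, and 62.4%, 65.4% and 65.1% in OXA. The summed level of DIABLO and HTRA2 was 0.211, 0.213 and 0.194 times that of the IAP genes in NT and 0.248, 0.262 and 0.227 times in OXA, so the OXA libraries lay above the NT libraries. Leaving out BIRC5, the same ratio was 0.638, 0.765 and 0.671 in NT and 0.659, 0.756 and 0.648 in OXA, and the groups overlapped. The ratio of DIABLO to XIAP was 1.65, 1.82 and 1.47 in NT and 2.08, 2.42 and 1.74 in OXA, and OXA library 3 lay within the NT range. With canonical lengths the ratio of antagonists to IAP genes was between 0.474 and 0.536 in NT and between 0.576 and 0.684 in OXA. These ratios describe the members, were looked at after their values were seen and were not tested.

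**Figure D4:**
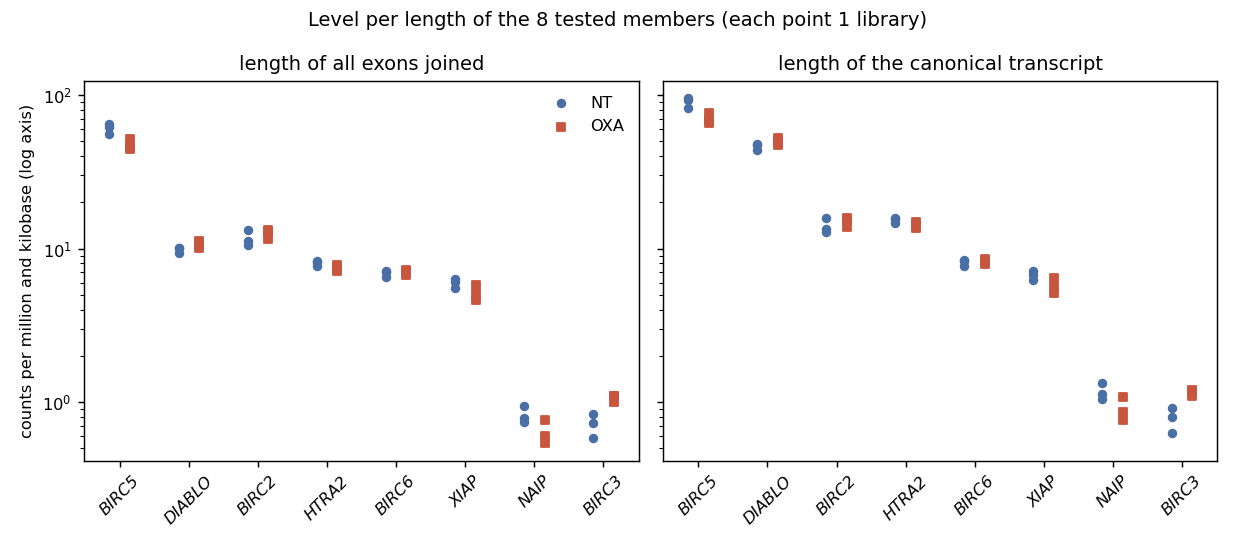
CPM per kilobase (y axis, log scale) of the 8 tested genes in the 3 NT and 3 OXA libraries, with the length of all exons joined on the left and of the canonical transcript on the right. BIRC5 is highest on both scales, DIABLO changes place with the length used, and BIRC3 and NAIP lie lowest.

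The proteins that IAPs act on or with were read from 61 further genes in 6 lists, of which 55 passed the filter. Over the 55, edgeR called 1 higher and 1 lower without the block, beside 2.78% and 2.29% of all genes tested, and 6 higher and 6 lower with it, beside 12.1% and 10.9%. CASP9, the initiator caspase held by XIAP, had 334, 385 and 415 normalized counts in NT and 462, 469.9 and 451 in OXA, without overlap (log2 fold change 0.29 ± 0.13 SE, edgeR adjusted p = 0.251, and 0.0982 with the block).

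Of 13 genes for the release and control of the antagonists, HTRA paralogs and BIRC8 included, 8 were tested, with a median log2 fold change of 0.055 beside 0.023 over all genes. The median was 0.13 without NT library 1 and -0.042 without NT library 2, and with other single libraries left out it lay between these values. PARL, a protease of the inner mitochondrial membrane that trims SMAC, was the highest at 0.30 and rose with the block (edgeR adjusted p = 0.0439), or without it when NT library 1 was left out (log2 fold change 0.43, edgeR adjusted p = 0.0415). SEPTIN4, whose short isoform ARTS binds XIAP, was the lowest at -0.40, with 303, 335 and 276 normalized counts in NT and 265, 238 and 192 in OXA (edgeR adjusted p = 0.224, and 0.0599 with the block). The others tested (CYCS, APAF1, PINK1, AREL1, GSPT1 and UBA6) had log2 fold changes between -0.12 and 0.26. XAF1, an antagonist of XIAP, had 0 to 2 raw counts per library and was not tested.

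The TNF receptor complex, in which cIAP1 and cIAP2 act, had 21 genes, all tested, with a median log2 fold change of 0.13 beside 0.023 over all genes. This median was 0.045 without NT library 1, with 13 genes above 0 in place of 15, where that of all genes was -0.0031. It lay between 0.098 and 0.18 without any of the other 5 libraries. Over all genes tested, 6784 of 13722 lay above 0 without NT library 1, in place of 7313 of 13727. CFLAR, which encodes the caspase-8 inhibitor FLIP, was the only one with an edgeR adjusted p under 0.05 without the block. It had 766, 715 and 734 normalized counts in NT and 1144, 1169.9 and 1214 in OXA, without overlap (log2 fold change 0.67 ± 0.095 SE, edgeR adjusted p = 0.0108). CFLAR lost this call when NT library 2, NT library 3 or any of the OXA libraries was left out. Of all genes, 153 and 115 were called higher without NT libraries 2 and 3, against 381 with all libraries. There were 66, 94 and 101 without OXA libraries 1, 2 and 3. With the block 4 of the 21 rose and 0 fell, beside 12.1% and 10.9% of all genes, the others being CASP8 (log2 fold change 0.41), TNFRSF1A (0.43) and TNFRSF12A (0.53). CASP8 was also called without the block once NT library 1 was left out (log2 fold change 0.45, edgeR adjusted p = 0.0484). TRAF2, the adaptor that brings cIAPs to the receptor, was the lowest at -0.20 with a wide spread, since NT library 1 had 299 normalized counts and NT libraries 2 and 3 had 749 and 651 (edgeR adjusted p = 0.766).

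Of 12 NF-kB factors and response genes, 10 had a log2 fold change above 0, and the median was 0.26 beside 0.023 over all genes. Without NT library 1 the median was 0.13 with 9 of the 12 above 0, where that of all genes was -0.0031. The median of the list lay between 0.19 and 0.32 without any of the other 5 libraries. Over all genes tested, 7313 of 13727 lay above 0, and 6784 of 13722 did without NT library 1. NT library 1 held the lowest NT value of RELA (1833, against 2838 and 2754 normalized counts) and of BCL3 (141, against 298 and 297). The adhesion gene ICAM1 was highest, with 264, 288 and 235 normalized counts in NT and 499.9, 573 and 321 in OXA (log2 fold change 0.83 ± 0.22 SE, edgeR adjusted p = 0.0793, and 0.0143 with the block). REL, which encodes the factor c-Rel, was lowest and fell with the block (log2 fold change -0.48 ± 0.13 SE, edgeR adjusted p = 0.0887, and 0.0127 with the block). BIRC3 lay between these genes at 0.57. The feedback genes NFKBIA (log2 fold change 0.26, edgeR adjusted p = 0.281) and TNFAIP3 (-0.10, edgeR adjusted p = 0.786) had no call in either fit, and their standard errors were 0.13 and 0.17. In NFKBIA, NFKBIE (0.33) and TNIP1 (0.38) all OXA libraries lay above all NT libraries, while in TNFAIP3 the groups overlapped. NFKBIE and TNIP1 also had no call in either fit. Of the 12, 4 lay higher without overlap and 1 lower, beside 14.5% and 14.4% of all genes. Of the 12, 1 gene rose and 1 fell with the block, beside 12.1% and 10.9% of all genes, and edgeR called 0 without it, beside 2.78% and 2.29%. At an unadjusted edgeR p under 0.05, 2 were higher and 1 lower, beside 10.7% and 11.1%. None of these counts is read as particular to the list.

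**Figure D5:**
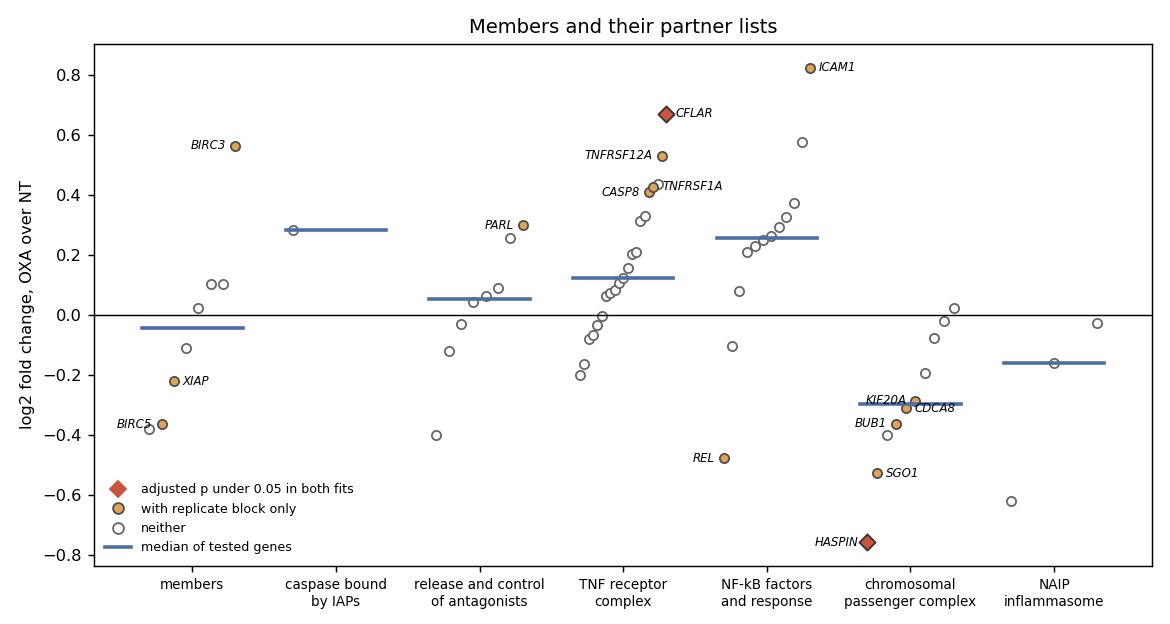
Log2 fold change of OXA over NT (y axis) for the tested genes of the family and of 6 partner lists, each point 1 gene and each bar the median of a list. Diamonds mark CFLAR and HASPIN, which had an edgeR adjusted p under 0.05 in both fits, filled circles the genes called with the replicate block only, and open circles the rest.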

How the data were processed

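RNA-seq of 3 NT and 3 OXA libraries was used, grouped by sample title. The submitters' processing notes name Trimmomatic 0.32, STAR 2.7.5b, RSEM 1.3.3 and DESeq2 with GRCh38. The authors deposited raw counts, whole numbers used as deposited, and a normalized signal equal to the count times a factor that differed between genes and libraries, used for an alternative. Annotation and strand setting of the counting are not given in the sources used here. Of 27942 rows, 19353 had a count and 13727 passed filterByExpr (minimum count 10, minimum total 15).

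TMM factors were used, and the quasi-likelihood test of edgeR 4.0.16 in R 4.3.3 compared OXA with NT. P-values were adjusted by Benjamini and Hochberg's method over every gene tested, with a threshold of 0.05. Alternatives used DESeq2 1.42.0 and limma 3.58.1. A standard error is the log2 fold change divided by the root of F, and the 95% intervals use it. Normalized counts are TMM-normalized counts. Counts at or under the floor of 3 were taken as limited by depth. Low counts above the floor can also carry wide errors, as in NLRC4 (7 to 24 raw counts, SE 0.40). Since PCR duplicates were not told apart, the floor covers counting error only. Positions and lengths are from GENCODE release 44 on GRCh38, promoters from RefSeq (GRCh38.p14). The edgeR comparison without the block was tested on simulated counts with known changes and no effect of the library number. The blocked fit and the other alternatives were not tested in this way.

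Deviations from group means correlated at 0.51, 0.50 and 0.28 for libraries of the same number, all over the limit of 0.1, and at most at 0.083 for different numbers, so the block is given where it alters a call. The numbers come from the sample titles, which do not say what a number stands for.

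The members and lists were chosen with earlier results of these data known. Named are all 9 genes, and of each list those past the threshold and those with the smallest and largest log2 fold change, CDKN1A and MDM2, and the 3 genes most alike to each called member. Other genes named were chosen after their values were seen. SEPTIN4 was matched through its gene identifier. Alternatives were other factors, no filter, DESeq2, limma-trend on log2(signal + 1), the block and each library left out. The block without both libraries of 1 number, the canonical transcript length, and list medians without each library, were added after seeing the data. Some genes of the lists are not reported here, and the lists' counts leave them out. Western blot, imaging and viability data were not analysed here.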

Additional observations from a re-analysis of the deposited data

How the results depend on the processing

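The number of the 9 genes called was 0 higher and 0 lower in the comparison as reported. The replicate block gave 1 higher and 2 lower, DESeq2 gave 0 higher and 1 lower (BIRC5), and the fits that each left out 1 library gave 0 higher throughout and between 0 and 1 lower, the 1 being BIRC5 without NT library 1. Leaving out both libraries of 1 number from the blocked fit gave between 0 and 2 higher and between 0 and 3 lower, with no call without those numbered 2. In those fits 21.2% of genes were higher and 20.2% lower without the libraries numbered 1, 6.95% and 4.89% without those numbered 2, and 13.7% and 8.66% without those numbered 3. Of the genes in the partner lists, 1 was higher and 1 lower as reported, against 3 and 3 by DESeq2, 6 and 6 with the block, and 2 lower by limma-trend on the authors' values. Leaving out 1 library gave between 0 and 3 higher and between 0 and 3 lower, with 3 (CFLAR, CASP8 and PARL) and 3 (HASPIN, SGO1 and INCENP) without NT library 1. By edgeR, 0 genes of these lists were higher without NT library 2, NT library 3 or OXA library 1, 2 or 3. Without OXA library 1, 2 or 3, 0 were lower. Calls over all genes also fell in these fits, from 381 higher and 315 lower with all libraries. They were 153 and 145 without NT library 2, and 115 and 69 without NT library 3. Leaving out OXA library 1, 2 or 3 gave 66 and 19, 94 and 32, and 101 and 67. The blocked fit without 1 number gave 13, 5 and 12 higher and 12, 3 and 6 lower without numbers 1, 2 and 3. The cause of these shifts was not tested. BIRC6 turned its sign to -0.0046 without the filter on low counts, -0.049 without NT library 2, -0.014 without OXA library 3 and -0.020 with the block but without the libraries numbered 2, in each case without a call, and it ranged from -0.049 to 0.054 as single libraries were removed. Of 88 values of single members under 11 alternatives, 80 kept direction and call, 5 gained a call and 3 turned sign. The block changed no call of a member other than BIRC3, BIRC5 and XIAP. Counts at or under the floor of 3 in each library limited BIRC7, the second DIABLO row, XAF1, BIRC8, HTRA3, HTRA4 and CASP1.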

Other observations

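For the 3 members called with the replicate block, the tested genes with the most similar normalized counts over the 6 libraries were looked up by Pearson's r on the log2 scale. They are a description over 6 libraries in 2 groups, picked as the highest r among all genes tested. For BIRC5 they were GPR137C, CNTNAP3B and ASF1B, a histone chaperone gene of replicating cells, with r between 0.991 and 0.994. Of these, ASF1B passed the threshold without the block (log2 fold change -0.75, edgeR adjusted p = 0.0209). For XIAP they were NAB1, ZNF780B and GGH, with r between 0.991 and 0.998, and for BIRC3 they were ATP5MG, NORAD and PIGM, with r of 0.994. The lowest edgeR adjusted p of these 6 genes was 0.119.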
